A study of Mus musculus with 12 samples.

Results

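The contractile genes of smooth muscle cells and myofibroblasts were examined in mouse prostate tumours. They were chosen by name as the genes Acta2, Tagln, Cnn1, Myh11, Actg2, Lmod1, Smtn, Synpo2, Des and Myocd. All 10 were measured, out of 19937 genes that have a probe set with a single symbol, and each is represented by 1 probe set. The tumours grew from 50000 cells of TRAMP-C2Re3, a prostate carcinoma line of the mouse, placed in the prostates of C57BL6 mice and collected at day 60. The hosts were 6 p62 KO mice and 6 wild-type (WT) mice, so that the comparison asks whether absence of the adaptor p62 from host cells alters the RNA of the whole tumour. Both groups received the same line, and the knockout in the sample titles is that of the host mouse. The state of the p62 gene Sqstm1 in the injected line was not examined here. The labels give neither the age of the mice, nor the deleted part of the gene, nor a driver that would limit the knockout to a cell type. Each array holds RNA of 1 tumour, amplified from bulk total RNA. In such material fewer cells of a type and less RNA per cell cannot be told apart. All levels are log2 intensities after robust multi-array averaging (RMA), and a difference of 1 is a change by a factor of 2.

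Smooth muscle cells shorten by sliding actin filaments along smooth muscle myosin. Serum response factor and its partner myocardin switch on many of the genes involved, through promoter elements called CArG boxes. Fibroblasts of wounds and tumours that become myofibroblasts take up part of this programme. Acta2 and Tagln are its early and widely shared genes, whereas Myh11, Cnn1, Smtn, Lmod1, Actg2 and Synpo2 mark later contractile differentiation. Des encodes the muscle intermediate filament and is also made in skeletal and cardiac muscle. The wall of the host prostate itself contains smooth muscle.

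Promoters were looked at because CArG boxes tie these genes to a shared regulator. RefSeq promoter sequences (build GRCm38.p6) were available for 6 of the 10 genes, Acta2, Cnn1, Lmod1, Smtn, Synpo2 and Des. The 250 bases before the start site were searched on both strands. An exact CArG box, which has only A or T in its core, occurred in 0 of the 6 and in 1.47% of all 32851 promoters. A CArG box with a single G or C in the core occurred in 1 of the 6, Acta2, and in 7.24% of all promoters. The motif CATTCC, to which TEAD factors bind, occurred in 3 of the 6 (Acta2, Lmod1 and Smtn) and in 12.6% of all. These are matches of letters, and no match says only that the letters are missing from this window. The promoter of Acta2 is shown as that of the main myofibroblast gene, and those of Cnn1 and Lmod1 as those of the members with the highest correlation across tumours. Capitals mark the CArG-like boxes and CATTCC or its reverse complement GGAATG. The Acta2 stretch lies at chr19:34255374-34255623 on the minus strand, the Cnn1 stretch at chr9:22099003-22099252 on the plus strand and the Lmod1 stretch at chr1:135324563-135324812 on the plus strand.
Acta2: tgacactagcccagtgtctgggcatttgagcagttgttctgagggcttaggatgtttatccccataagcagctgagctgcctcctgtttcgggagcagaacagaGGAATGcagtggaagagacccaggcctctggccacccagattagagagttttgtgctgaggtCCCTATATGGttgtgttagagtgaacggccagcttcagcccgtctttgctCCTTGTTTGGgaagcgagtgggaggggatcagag
Cnn1: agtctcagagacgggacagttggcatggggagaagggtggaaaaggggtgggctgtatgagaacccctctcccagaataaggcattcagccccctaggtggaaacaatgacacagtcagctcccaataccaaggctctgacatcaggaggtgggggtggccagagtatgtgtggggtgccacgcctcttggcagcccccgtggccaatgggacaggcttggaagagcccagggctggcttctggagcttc
Lmod1: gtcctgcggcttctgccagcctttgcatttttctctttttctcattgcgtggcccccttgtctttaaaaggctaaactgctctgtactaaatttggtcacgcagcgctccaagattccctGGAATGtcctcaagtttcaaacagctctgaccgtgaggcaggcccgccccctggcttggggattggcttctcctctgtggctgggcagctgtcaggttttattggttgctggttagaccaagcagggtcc
In Acta2 the boxes CCCTATATGG and CCTTGTTTGG begin 84 and 34 bases before the start site. Cnn1 holds no capitals because none of these motifs was found in its window.

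In all, 4 of the arrays stood apart from the rest, which bears on several members. KO hosts 2 and 3 and WT hosts 2 and 5 had interquartile ranges of 2.26, 2.15, 2.59 and 2.47, against 2.70 to 2.95 in the other 8. Their lower quartiles were the highest of the 12, with 5.27 and 5.36 in KO hosts 2 and 3, so that the dim end of the scale began higher on these arrays. Over the 12 arrays the lower quartile ran from 4.85 to 5.36. The labelled tissue was checked with epithelial and gland genes. The keratin Krt8 stood at 7.76 to 8.65 and Krt18 at 5.58 to 6.36, and the adhesion gene Epcam was low, at 4.32 to 5.16. Secretory genes of the normal prostate were low in most tumours, with the androgen-regulated Pbsn at 2.81 to 3.18 and the transglutaminase Tgm4 at 4.30 to 4.78. In WT host 4, however, Sbp and Spink1 reached 6.05 and 5.82, their highest levels. Nothing in the labels marks a batch.

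None of the 10 contractile genes passed the test between host genotypes. Of these, 8 had higher means in tumours of KO hosts and 2, Acta2 and Tagln, had lower means, with 57.2% of all probe sets higher. The differences ran from -0.23 for Tagln to 0.24 for Cnn1. Limma called 0 of the 10 at an adjusted p under 0.05, where 0.00355% of all 28192 probe sets were called (Nlrp1c-ps, an inflammasome pseudogene, at -1.68). It gave 0 of the 10 an unadjusted p under 0.05, where 2.39% of probe sets had one. The groups overlapped in all 10 members, and did not overlap in 0.145% of probe sets. The adjusted p was 0.994 for every member. Their median difference was 0.09, beside 0.02 over all probe sets.

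**Figure D1:**
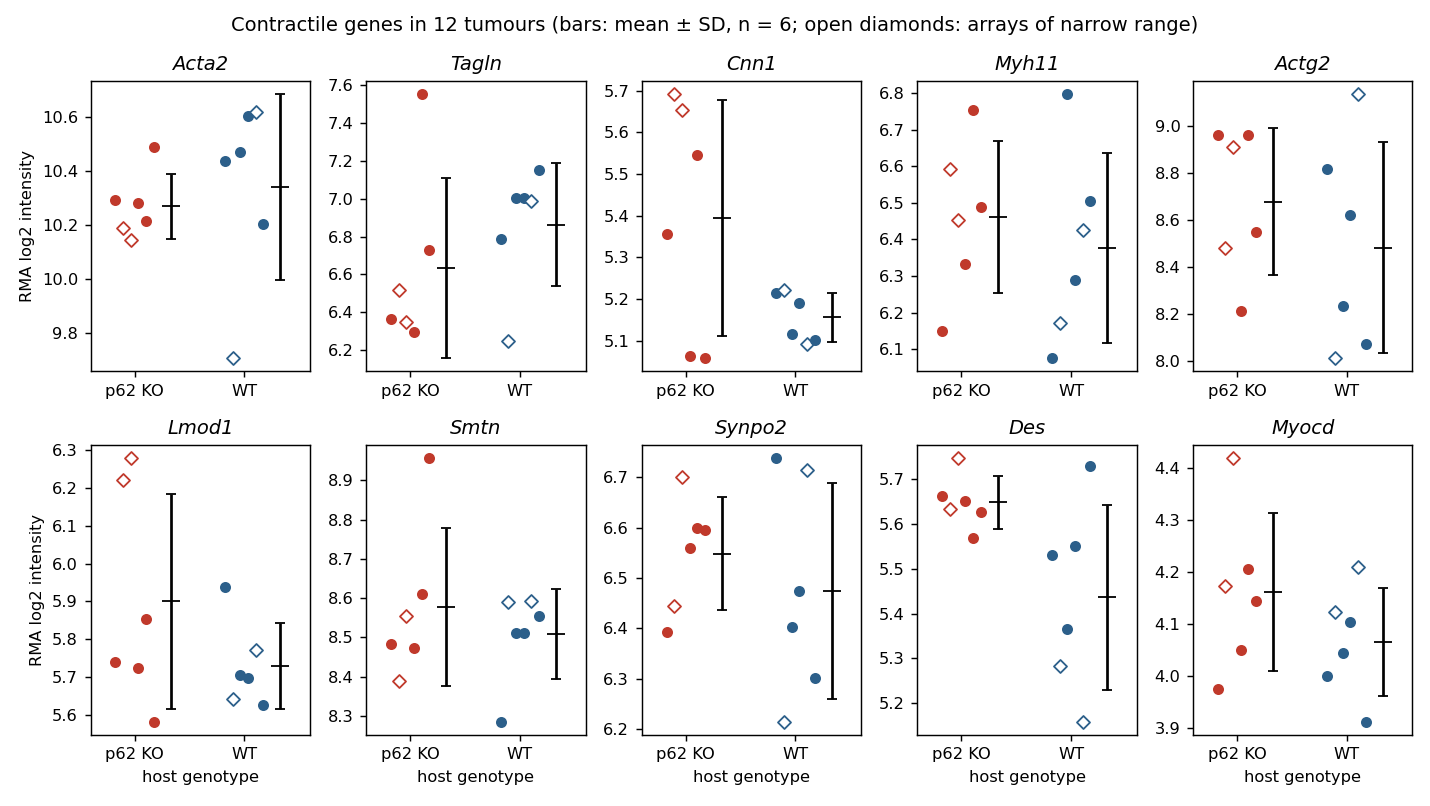
Log2 intensity (vertical axis) of each contractile gene in the 6 tumours of p62 KO hosts (red) and the 6 of WT hosts (blue), with bars for the mean and SD. Open diamonds are the arrays of narrow range; the groups overlap in every panel.

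Acta2 encodes the smooth muscle actin by which myofibroblasts are usually recognised. It ran from 10.15 to 10.49 with a median of 10.25 in tumours of KO hosts, and from 9.71 to 10.62 with a median of 10.45 in tumours of WT hosts. The spread was wider in the WT group, and its lowest tumour, WT host 2, lay below the 10.15 of the next lowest of the 12. The means were 10.27 ± 0.12 and 10.34 ± 0.34 (SD, n = 6 each). They differed by -0.07, with a 95% interval of -0.38 to 0.24. Without WT host 2 the difference was -0.20, without WT host 5 it was -0.015, and without the 4 arrays of narrow range it was -0.11.

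Tagln encodes transgelin, an actin-bundling protein induced early with Acta2. In KO hosts it ran from 6.30 to 7.55 with a median of 6.44, and in WT hosts from 6.25 to 7.15 with a median of 6.99. In WT hosts 5 of the 6 tumours read 6.79 or more, and 5 of the 6 KO tumours read 6.73 or less. The exceptions were WT host 2, the lowest of all, and KO host 5, the highest of all. The means of 6.63 ± 0.48 and 6.86 ± 0.32 (SD, n = 6 each) differed by -0.23 (95% interval -0.68 to 0.23). This difference was -0.41 without KO host 5 and -0.13 without KO hosts 2 and 3, and it did not pass in either case. The SD of Tagln within host groups was larger than that of 87.8% of probe sets, so that tumours of the same genotype differed widely.

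Cnn1 encodes calponin, an actin-binding regulator of contraction. It showed the largest difference of the 10. The levels were 5.06 to 5.69 (median 5.45) in KO hosts and 5.09 to 5.22 (median 5.15) in WT hosts. In all, 4 KO tumours lay above every WT tumour, while the other 2 lay below every WT tumour. The means of 5.39 ± 0.28 and 5.16 ± 0.06 (SD, n = 6 each) differed by 0.24 (SE 0.12, 95% interval -0.02 to 0.50). The highest levels, 5.69 and 5.65, belonged to KO hosts 2 and 3, whose omission gave a difference of 0.10 (adjusted p = 0.762). It was also 0.10 without these and WT hosts 2 and 5. The levels of Cnn1 lie near the lower quartiles of the arrays.

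Lmod1 encodes leiomodin, which starts actin filaments in smooth muscle, and it resembled Cnn1. The levels ran from 5.58 to 6.28 (median 5.80) in KO hosts and from 5.62 to 5.94 (median 5.70) in WT hosts. KO hosts 2 and 3, at 6.22 and 6.28, lay above all the others. The difference of 0.17 (95% interval -0.10 to 0.44) turned to -0.0045 without these 2 tumours and to -0.016 when WT hosts 2 and 5 were left out as well. The direction of the Lmod1 difference thus depended on which tumours were included.

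Myh11 encodes the smooth muscle myosin heavy chain, the motor and the most specific marker of the mature cell. Its level was 6.15 to 6.75 (median 6.47) in KO hosts and 6.08 to 6.80 (median 6.36) in WT hosts. Both groups covered nearly the same range. The means of 6.46 ± 0.21 and 6.38 ± 0.26 (SD, n = 6 each) differed by 0.08 (95% interval -0.20 to 0.37), and by 0.02 without the 4 arrays of narrow range. When single tumours were left out, the Myh11 difference ran from 0.02 (without WT host 1) to 0.17 (without WT host 3), and none of these passed the test. Smtn encodes smoothelin, found in contractile cells, and ran from 8.39 to 8.96 (median 8.52) in KO hosts and from 8.29 to 8.59 (median 8.53) in WT hosts. Apart from KO host 6, at 8.96, and WT host 1, at 8.29, all tumours lay between 8.39 and 8.61. The difference of 0.07 for Smtn (95% interval -0.15 to 0.29) turned to -0.0065 without KO host 6.

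Actg2 encodes the actin typical of visceral smooth muscle. It varied strongly within both groups, from 8.21 to 8.96 (median 8.73) in KO hosts and from 8.01 to 9.13 (median 8.43) in WT hosts. The highest and the lowest tumour both belonged to WT hosts, hosts 5 and 2. The difference was 0.20 (95% interval -0.24 to 0.63), and its within-host SD exceeded that of 85.4% of probe sets. Without WT host 5 it was 0.33, and without WT host 2 it was 0.10. Synpo2 encodes an actin-bundling protein of the muscle Z-disc and dense bodies. It ran from 6.39 to 6.70 (median 6.58) in KO hosts and from 6.21 to 6.74 (median 6.44) in WT hosts, with a difference of 0.07 (95% interval -0.15 to 0.30). The Synpo2 difference was 0.02 without WT host 2 and 0.13 without WT host 1, the lowest and the highest of all 12 tumours.

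Des had the lowest SD of the 10 genes in KO hosts. Its levels were 5.57 to 5.75 (median 5.64) in KO hosts and 5.16 to 5.73 (median 5.45) in WT hosts. In WT hosts 5 of the 6 tumours lay below every KO tumour, and WT host 6, at 5.73, was the exception. The means of 5.65 ± 0.06 and 5.44 ± 0.21 (SD, n = 6 each) differed by 0.21 (SE 0.10, 95% interval -0.00022 to 0.42) without passing the adjusted test. WT hosts 5 and 2 were the lowest of all, at 5.16 and 5.28, near the lower quartiles of these arrays, 5.135 and 5.076. Des was among the members left out when dim probe sets were removed. The difference remained at 0.19 without KO hosts 2 and 3 (adjusted p = 0.653) and was 0.08 once WT hosts 2 and 5 were left out as well (adjusted p = 0.996).

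Myocd encodes myocardin, the coactivator that drives the programme. It ran from 3.98 to 4.42 (median 4.16) in KO hosts and from 3.91 to 4.21 (median 4.07) in WT hosts, below the lower quartile of every array. KO host 3 was the highest tumour. The difference was 0.10 (95% interval -0.10 to 0.29), or 0.03 without KO hosts 2 and 3, and it ran from 0.04 (without KO host 3) to 0.13 (without KO host 1) over single omissions. No detection calls were used, and this level therefore cannot be compared with background.

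**Figure D2:**
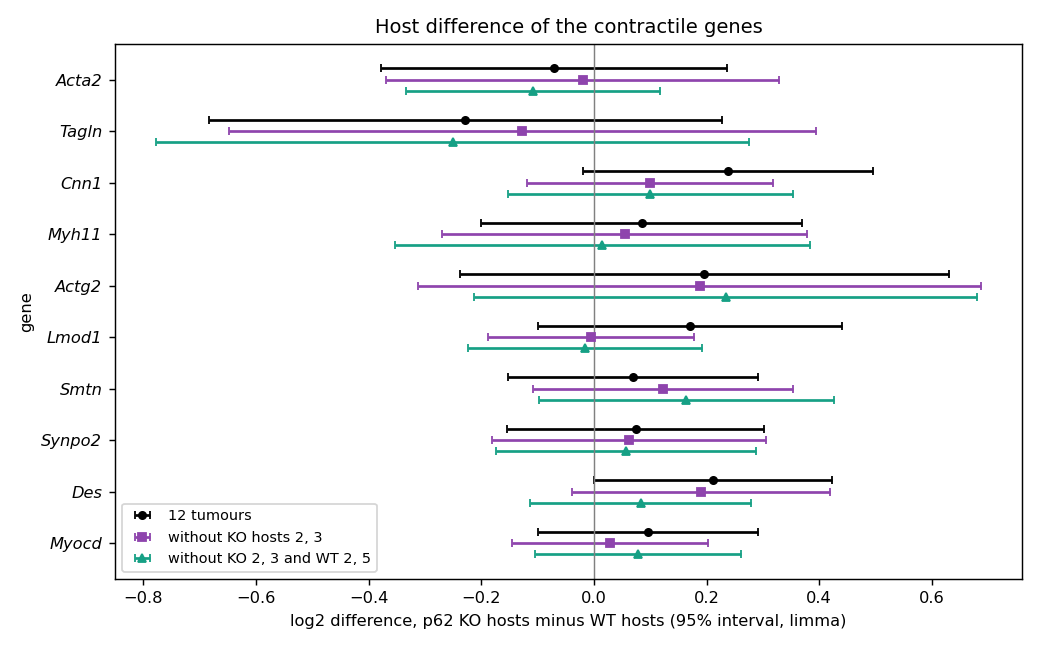
Log2 difference between tumours of p62 KO and WT hosts (horizontal axis, points) with 95% limma intervals (bars) for each gene, over 12 tumours and with the arrays of narrow range left out. Every interval includes 0; Lmod1 and Cnn1 move towards 0 without KO hosts 2 and 3.

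Without KO hosts 2 and 3, 0 of the 10 members were called and 0 had an unadjusted p under 0.05, beside 7.72% of all probe sets. Of the 10, 7 were then higher and 3 lower in KO hosts. With the array range as a covariate, Cnn1 at 0.20 (adjusted p = 0.716) and Des at 0.22 (adjusted p = 0.708) were the 2 of 10 with an unadjusted p under 0.05, beside 6.85% of all probe sets, and 0 of the 10 were called.

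The level of the array range itself was set against each gene, as 10 relations chosen after the values had been seen. Lmod1 fell as the range widened, with Pearson's r of -0.83 (permutation p = 0.00305, adjusted p = 0.0305) and Spearman's rho of -0.65 (permutation p = 0.0255, adjusted p = 0.148). Cnn1 had r = -0.69 (permutation p = 0.0125, adjusted p = 0.0557) and rho = -0.64 (permutation p = 0.0296, adjusted p = 0.148). For Myocd r was -0.67 (permutation p = 0.0167, adjusted p = 0.0557) and rho was -0.41 (permutation p = 0.185, adjusted p = 0.457). Without KO hosts 2 and 3, the tumours farthest from the median range, r was -0.27 for Lmod1, -0.08 for Cnn1 and -0.28 for Myocd, so that these relations rest on those 2 tumours. Des went the other way, with r = 0.01 over all tumours (permutation adjusted p = 0.971). Without KO hosts 2 and 3 its r was 0.71 (permutation adjusted p = 0.235). An r below -0.83 was found in 19.2% of all probe sets. Acta2, with r = 0.30, and Tagln, with r = 0.38, went the other way without passing (permutation adjusted p = 0.549 and 0.544).

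**Figure D3:**
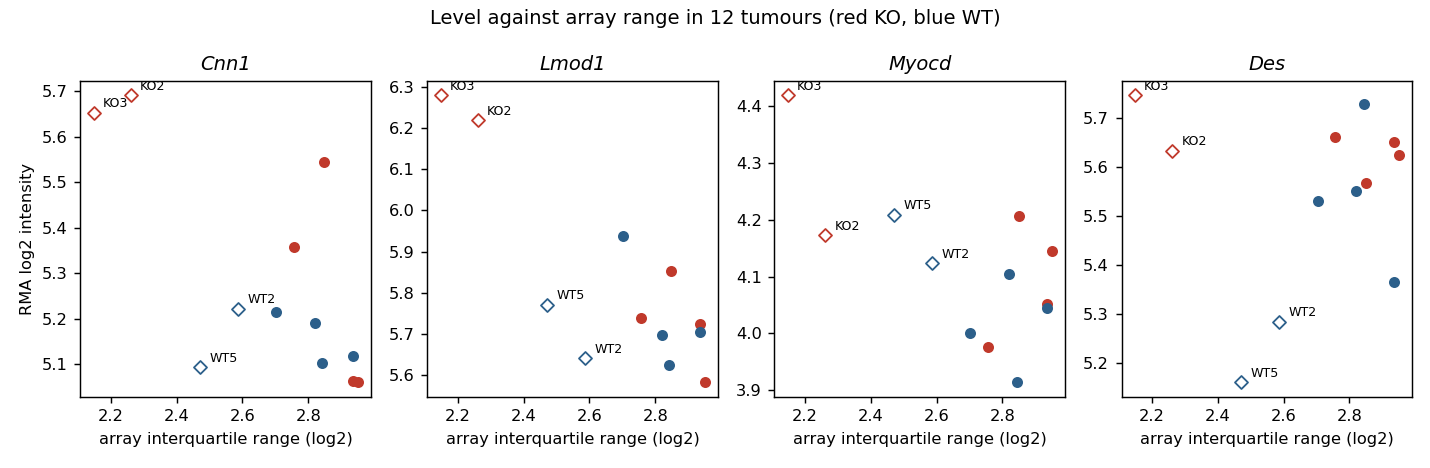
Log2 intensity (vertical axis) of Cnn1, Lmod1, Myocd and Des against the interquartile range of the array (horizontal axis, log2) in 12 tumours, red for p62 KO and blue for WT hosts. KO hosts 2 and 3, with ranges of 2.26 and 2.15, hold the highest Cnn1 and Lmod1 levels.

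Acta2 and Tagln were then compared with the late contractile genes Cnn1, Myh11, Actg2, Lmod1, Smtn, Synpo2 and Des. Each gene was expressed relative to its own mean over the 12 tumours, the early and the late genes were averaged, and no test was made because the members were chosen with results known. The early mean was -0.07 ± 0.25 in KO hosts and 0.07 ± 0.31 in WT hosts, and the late mean was 0.07 ± 0.12 and -0.07 ± 0.09 (SD, n = 6 each). Early minus late ran from -0.51 to 0.19 (median -0.17) in KO hosts and from -0.33 to 0.33 (median 0.26) in WT hosts. Above 0 were 5 of the 6 WT tumours and 2 of the 6 KO tumours. Among WT hosts, 4 tumours lay above every KO tumour, whereas WT host 2 was lower than all KO tumours but KO host 3. The group means of -0.15 ± 0.25 and 0.15 ± 0.25 (SD, n = 6 each) differed by -0.30, which is about as large as 1 SD within a group. The value was -0.18 without KO hosts 2 and 3, -0.27 when WT hosts 2 and 5 were left out too, and between -0.39 and -0.23 when single tumours were omitted.

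**Figure D4:**
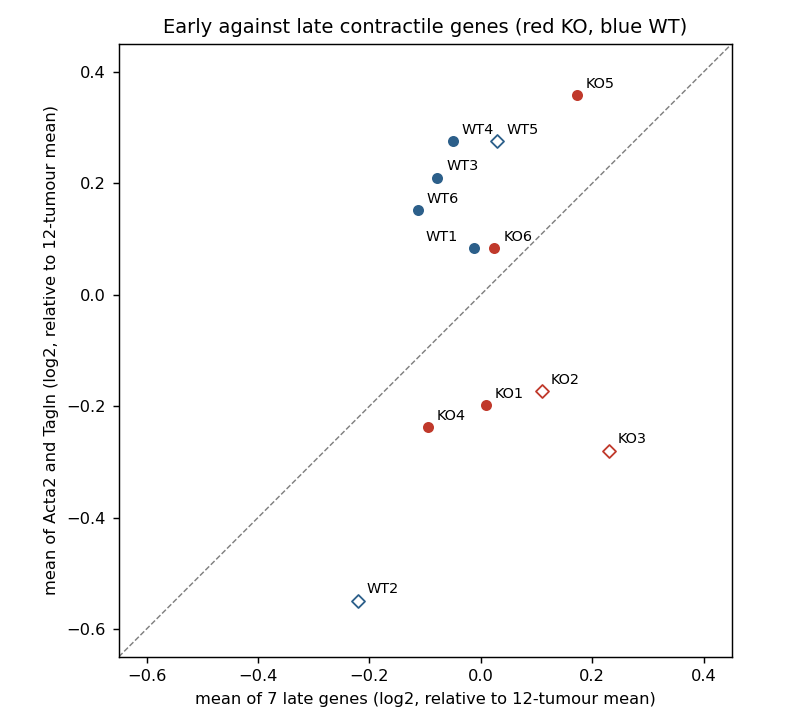
Mean of Acta2 and Tagln (vertical axis) against the mean of 7 late contractile genes (horizontal axis), both log2 relative to the mean of the 12 tumours; the dashed line marks equal values. Of the WT tumours (blue) 5 lie above the line and 4 KO tumours (red) below it, and WT host 2 is lowest on both axes.

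Across the 12 tumours the 10 genes did not vary as a block. Over their 45 pairs the median Pearson's r was 0.13, and 29 were positive. After adjustment 0 pairs passed the permutation test, and 3 had an unadjusted p under 0.05. The median was 0.10 over the 14 pairs of Acta2 or Tagln with a late gene and 0.12 over the 21 pairs of late genes. All members share the array on which they were measured.

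Cnn1 and Lmod1 had the highest r, 0.85 (permutation p = 0.00145, adjusted p = 0.0652), with rho = 0.69 (permutation p = 0.0174, adjusted p = 0.592). It was 0.88 within KO hosts and 0.27 within WT hosts. Without KO hosts 2 and 3, the 2 tumours farthest from the median of Cnn1, r was 0.51. The adjusted p of this pair was 0.0488 without KO host 1 and 0.0355 without WT host 1, and it was 0.337 without KO host 2. On values relative to the host mean, Cnn1 ranked above 94.1% of other probe sets in its r with Lmod1. Lmod1 ranked above 99.1% in its r with Cnn1. Lmod1 had an r over 0.7 in absolute size with 36.2% of other probe sets, and Cnn1 with 15.7%.

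Actg2 and Synpo2 came next, with r = 0.73 (permutation p = 0.00917, adjusted p = 0.206) and rho = 0.64 (permutation p = 0.0307, adjusted p = 0.592). Within WT hosts r was 0.95 and within KO hosts 0.08, a difference between genotypes that was not tested. Without WT hosts 2 and 5, which hold the lowest and the highest Actg2, r was 0.55. This pair reached an adjusted p of 0.0459 without KO host 1. Over all other probe sets, on values relative to the host mean, Synpo2 ranked above 99.7% in its r with Actg2.

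Acta2 and Tagln were only loosely related, with r = 0.44 (permutation p = 0.156, adjusted p = 0.653) and rho = 0.42 (permutation p = 0.177). The value was 0.02 within KO hosts and 0.78 within WT hosts. It was 0.18 without WT hosts 2 and 5, the tumours farthest from the median of Acta2, and -0.10 over the 8 arrays of wider range. Tagln was closer to Myh11, with r = 0.56 (permutation p = 0.0623, adjusted p = 0.494) and rho = 0.52 (permutation p = 0.0837), and this was 0.78 within KO hosts and 0.57 within WT hosts. Without KO host 5 and WT host 2, the extremes of Tagln, it was 0.28. Tagln ranked above 99.6% of other probe sets in its r with Myh11, on values relative to the host mean.

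Among late genes Acta2 had its lowest r with Cnn1, -0.37 (permutation p = 0.235, adjusted p = 0.677). Their rho was -0.61 (permutation p = 0.0394, adjusted p = 0.592), and r was -0.63 without WT hosts 2 and 5. Its highest were with Synpo2, r = 0.54 (permutation p = 0.0659, adjusted p = 0.494), and Actg2, r = 0.45 (permutation p = 0.138, adjusted p = 0.653). Without WT hosts 2 and 5 these were 0.03 and -0.08. Myocd had r = 0.62 with Lmod1 (permutation p = 0.0349, adjusted p = 0.494) and 0.57 with Cnn1 (permutation p = 0.0515, adjusted p = 0.494). Their rho was 0.44 (permutation p = 0.152) and 0.27 (permutation p = 0.386). Without KO hosts 2 and 3 both r values were weaker, at 0.08 for Lmod1 and 0.20 for Cnn1. On values relative to the host mean, Myocd ranked above 64.3% of other probe sets in its r with Lmod1 and above 65.4% with Cnn1.

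**Figure D5:**
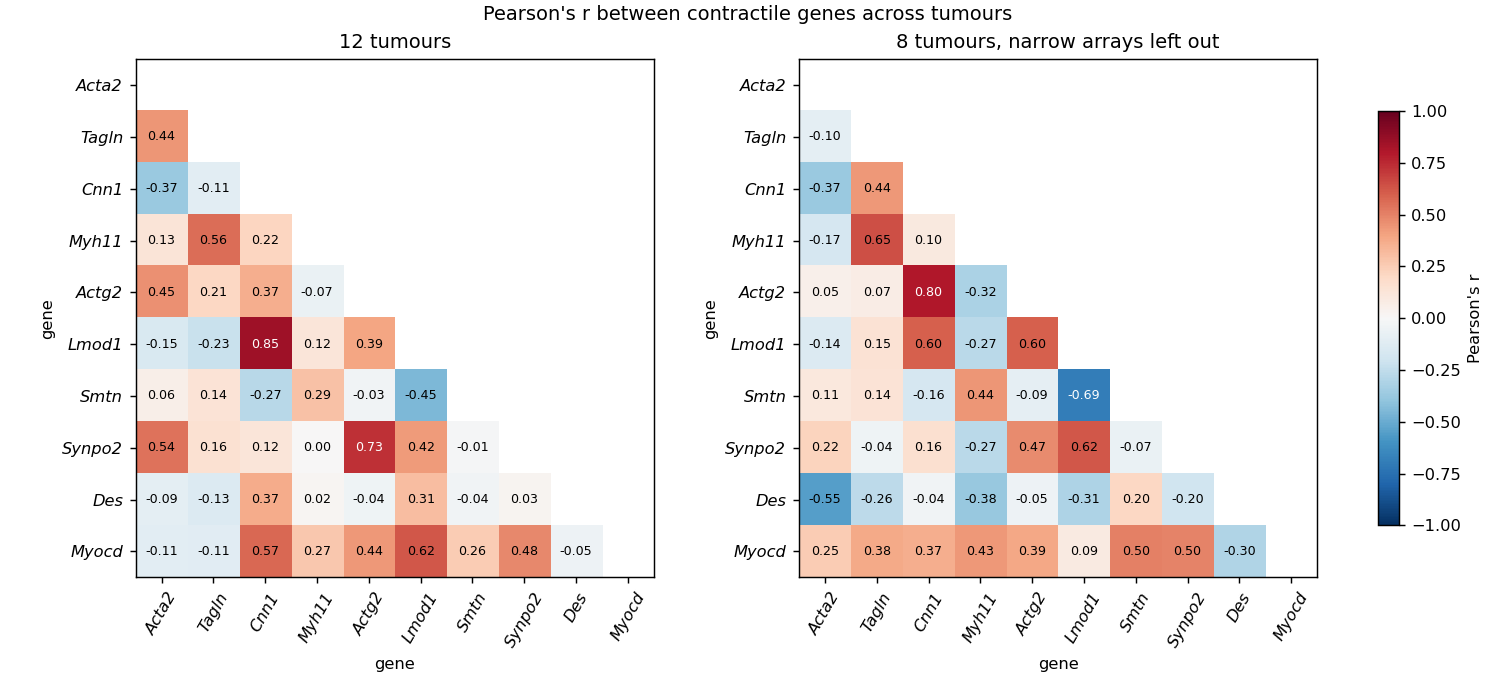
Pearson's r between the contractile genes (both axes) over the 12 tumours (left) and over the 8 with wider array ranges (right), with colour from -1 to 1. The pair of Cnn1 and Lmod1 is at 0.85 and 0.60, and that of Acta2 and Tagln at 0.44 and -0.10.

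Genes outside the list with the most similar pattern were sought by Pearson's r over the 12 tumours, on values relative to the host mean. For Acta2 they were Clec2g (0.92), Celf3 (0.90), Necap1 (0.89), Zfat (0.88) and Syk (0.88). Over the 8 arrays of wider range these values were 0.77, 0.84, 0.88, 0.94 and 0.46. For Myh11 they were Ropn1l (0.85), Ethe1 (0.84), Zfp408 (0.83), Mir18 (0.82) and Faap20 (0.80), with 0.79 to 0.90 over the 8 arrays of wider range. Of the other 9 members, 0 were as similar to Acta2 or to Myh11 as these genes. Mir18 stood at a mean of 3.30, below the lower quartile of every array. These are the highest values among 19937 genes.

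Other contractile and cytoskeletal genes of smooth muscle did not move to one side. Of 33 measured, 18 had a higher and 15 a lower mean in the KO group, 0 were called, and the median difference was 0.01. An unadjusted limma p under 0.05 was found for 3 of the 33, Pdlim3, Npnt and Pgm5, beside 2.39% of all probe sets. The light chain kinase Mylk differed by -0.01 (SE 0.16), the regulatory light chain Myl9 by -0.07 (SE 0.18) and the essential light chain Myl6 by -0.08 (SE 0.13). The smallest unadjusted p belonged to Pdlim3, a Z-disc adaptor, which stood at 5.89 ± 0.42 against 5.43 ± 0.13 (SD, n = 6 each), a difference of 0.46. Npnt, the ligand of a muscle integrin, stood at 8.07 ± 0.40 against 8.72 ± 0.58 (SD, n = 6 each), a difference of -0.64. Without KO hosts 2 and 3 these were 0.43 and -0.53. The junction protein Pgm5 differed by 0.25 and the small heat shock protein Hspb7 by 0.22, which were 0.13 and 0.04 without KO hosts 2 and 3. The adjusted p of each of these genes was 0.994, except 0.998 for Mylk.

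Regulators of the programme were also level on average. Of 18 measured, 9 were higher and 9 lower, 0 were called, and the median difference was -3.7e-05. Rock1 was the 1 gene of the 18 with an unadjusted limma p under 0.05, beside 2.39% of all probe sets. Srf itself differed by 0.04 (SE 0.09). Its actin-sensing coactivators Mrtfa and Mrtfb differed by -0.06 (SE 0.09) and 0.16 (SE 0.12). Rock1, a kinase that promotes actin assembly, differed by -0.24 (SE 0.10), Gata6 by -0.10 and Elk4, a competing partner of Srf, by -0.17, which turned to 0.14 without KO hosts 2 and 3.

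On the TGF-beta axis, the main inducer of myofibroblasts, 8 of 15 measured genes were higher and 7 lower, 0 were called, and the median difference was 0.01. Pmepa1 was the 1 gene of the 15 with an unadjusted limma p under 0.05, beside 2.39% of all probe sets. The ligands Tgfb1, Tgfb2 and Tgfb3 differed by 0.04, 0.06 and -0.05, which were -0.13, 0.23 and 0.08 without KO hosts 2 and 3. Pmepa1, a feedback inhibitor, differed by -0.27 (SE 0.12), the matricellular gene Ccn2 by 0.36 (SE 0.17), Smad2 by -0.35 (SE 0.18) and Smad3 by 0.12 (SE 0.12). The Smad2 difference was -0.07 without KO hosts 2 and 3. Among other actins the cytoplasmic Actb differed by 0.12, the skeletal Acta1 by 0.10 and the cardiac Actc1 by -0.05, of which Acta1 turned to -0.07 without KO hosts 2 and 3.

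Markers of other cell types were set beside these values. Skeletal muscle is another source of Des. Of its 10 markers 8 were higher in KO hosts and 0 were called, with a median difference of 0.09, which was -0.06 without KO hosts 2 and 3. Ckm differed by 0.03, and KO host 3 was the highest tumour in 7 of the 10. The log2 of their summed intensity was 9.31 to 9.88 in KO hosts and 9.33 to 9.57 in WT hosts. Of 5 cardiac markers 2 were higher, with Myh6 at -0.01, and the sums were 8.88 to 9.73 and 9.04 to 9.75.

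Pericytes, which wrap small vessels and also make Acta2, had 4 of 7 markers higher and 0 called, with a median difference of 0.10 that was 0.22 without KO hosts 2 and 3. Rgs5 differed by -0.15 (SE 0.46), which turned to 0.22 without these tumours, and Pdgfrb by -0.16 (SE 0.15). The channel subunits Kcnj8 and Abcc9 differed by 0.45 (SE 0.19) and 0.27 (SE 0.21), and both differed by 0.46 without KO hosts 2 and 3. Kcnj8 was the 1 marker of the 7 with an unadjusted limma p under 0.05, beside 2.39% of all probe sets. The log2 of the summed pericyte intensity was 10.8 to 11.3 in KO hosts and 10.7 to 11.4 in WT hosts.

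The balance of the fibroblast, endothelial and macrophage lists depended on KO hosts 2 and 3. The upper quartiles of these arrays, 7.531 and 7.505, were the lowest of all. Whether the shifts come from the range of the arrays or from the cells was not tested. Over all probe sets the median difference went from 0.02 to -0.02 under this omission. Fibroblast markers were split 4 to 4, with Pdgfra at 0.01 and Dcn at -0.03, and sums of 12.4 to 13.1 in both groups. Without these 2 tumours 6 of the 8 were higher, the median went from -0.0059 to 0.13, and Pdgfra and Dcn stood at 0.34 and 0.09. Endothelial markers were split 3 to 3, with Pecam1 at -0.04 and Cdh5 at 0.17. Without the same tumours 5 of the 6 were higher, the median went from 0.02 to 0.20, and Pecam1 and Cdh5 stood at 0.37 and 0.41. Macrophage markers were higher in 3 of 4, with Adgre1 at -0.13 and Csf1r at 0.19. All 4 were higher without KO hosts 2 and 3, with Adgre1 at 0.27 and the median at 0.31 in place of 0.19.

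The medians of the epithelial and lymphocyte lists were lower under this omission. All 5 measured epithelial markers were higher, by a median of 0.02, with Krt8 at 0.02 and Krt18 at 0.20. Without KO hosts 2 and 3 only Krt18 of the 5 was higher, Krt8 stood at -0.20 and the median at -0.12. Of 7 gland secretion genes 4 were higher, with Pbsn at 0.06 and Tgm4 at -0.04, and their sums were 6.67 to 7.30 and 6.75 to 7.68. Lymphocyte markers were higher in 3 of 5, by a median of 0.04 that was -0.10 without these tumours. The T cell genes Cd3e and Cd4 differed by -0.14 and 0.04. The largest difference of the list was that of Cd79a, a subunit of the B cell receptor, which stood at 5.05 ± 0.24 against 4.42 ± 0.20 (SD, n = 6 each). It was higher by 0.63 in KO hosts (SE 0.13, limma unadjusted p = 0.000223, adjusted p = 0.994), and by 0.57 without KO hosts 2 and 3, while the other B cell gene, Ms4a1, differed by 0.11. The Cd79a mean of WT hosts lay below the lower quartile of every array. None of these lists had a gene called, and their part in the levels of the contractile genes was not tested.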

How the data were processed

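Total RNA of 12 tumours was extracted with TRIzol, amplified with a whole-transcriptome kit and hybridised to 1 single-colour array each, per the labels. The authors deposited log2 intensities for each probe set. RMA, without a version, is named in the submitters' processing notes. Of 34760 rows, 6568 control rows with the lowest identifiers were left out and 28192 probe sets were tested. Each gene was represented by its brightest probe set among those with exactly 1 symbol. Updating symbols through Entrez identifiers changed 0.

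The host comparison was a two-sided fit with limma 3.58.1 (R 4.3.3; lmFit, then eBayes) without covariates. P-values were adjusted by Benjamini-Hochberg over all tested probe sets, with a threshold of 0.05. Differences are p62 KO minus WT hosts. Correlations used two-sided permutation tests with 100000 resamples, adjusted over 45 pairs or 10 relations. The test was tried on simulated data. The members and lists were chosen with earlier results of these data known. Named are the members, called probe sets, the first 2 genes of each marker list, the first 3 and up to 4 with the smallest unadjusted p of each pathway list, and the 5 genes most like Acta2 and Myh11. Epcam, Sbp, Spink1, Kcnj8, Abcc9, Cd79a and Ms4a1 were named after their values were seen. Some genes of the pathway and marker lists are not reported here. The labels do not say that mouse numbers pair the tumours. Precision is limited by the number of arrays. Each tumour is from a separate mouse, per the labels. Alternatives were other normalizations, filters, variance models, covariates and omissions of tumours. Plots were drawn with matplotlib 3.10.9.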

Additional observations from a re-analysis of the deposited data

Results flagged for a closer look

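A single tumour lay well apart from the rest in 3 of the 22 sets of 6 values looked at; about 1 in 20 would do so by chance. Tagln in KO host 5 stood at 7.55, where the other KO tumours reached 6.73 at most. Smtn in WT host 1 stood at 8.29, where the other WT tumours lay at 8.51 to 8.59. The difference between early and late contractile genes was -0.33 in WT host 2, the only WT tumour below 0.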

How the results depend on the processing

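The count of called members was 0 in all alternatives run. Members with an unadjusted limma p under 0.05 numbered 0 in the main fit, beside 2.39% of all probe sets. They numbered 2 with the array range as a covariate, beside 6.85%. They numbered 1 after a further quantile normalization and 1 with a robust variance trend. The share of all probe sets was not taken for these last settings, so that their counts cannot be set against it. The direction of single members also moved. Lmod1, at 0.17, was at -0.0045 when KO hosts 2 and 3 were omitted and at -0.016 when WT hosts 2 and 5 were omitted as well. Smtn, at 0.07, was at -0.0065 without KO replicate 6 and otherwise at up to 0.11 over the leave-outs. The other 8 members kept their direction. Over all probe sets the count of 1 became 0 with dim probe sets removed, with all rows tested and without KO hosts 2 and 3, and was 675 at an unadjusted p under 0.05. Of the single omissions, those of KO host 2 and WT host 2 kept the count at 1 and the other 10 gave 0. The replicate block gave 0 called probe sets. It left the early minus late difference at -0.30, as it must where both groups hold the same numbers. The deviations of same-numbered mice had correlations of -0.55 to 0.37, with 4 of 6 over 0.1, and 2 of 6 WT and 0 of 6 KO tumours correlated best with their own number, so that the numbers were not taken as pairs. The early minus late difference was between -0.39 and -0.23 over the leave-outs, and stayed negative in every alternative run. Correlated pairs numbered 0 in most settings and 0 to 2 over the leave-outs. Members correlated with the array range numbered 1, or 0 by rank and 0 without the 2 farthest tumours, and 2 relative to host means. Dim levels, such as those of Myocd, limit what can be read from them. The causes of these changes were not tested.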
